A study of Mus musculus with 6 samples.

Results

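The 10 genes described here encode the proteins that make microRNAs and act with them: the Argonautes Ago1, Ago2, Ago3 and Ago4, their TNRC6 partners Tnrc6a, Tnrc6b and Tnrc6c, and the processing enzymes Dicer1, Drosha and Dgcr8. They were taken by gene symbol from a table of 57508 genes measured by RNA sequencing, and all 10 were found. The cells were KPC1199, a mouse line labelled as pancreatic tumour cells. There were 3 libraries with the genotype WT and library names that begin with siACSL5_CY3, and 3 libraries with the genotype ACSL5 knockdown and library names that begin with siACSL5_2260. In the knockdown group the titles read KO. Both groups carry siACSL5 in their names, and the labels do not explain the additions to it and name no reagent, dose or time. The comparison addresses the role of ACSL5, an enzyme that activates long-chain fatty acids, in pancreatic ductal adenocarcinoma. No label says whether libraries of a group came from separate cultures, so p-values measure the spread between these libraries, which may be technical.

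A microRNA is cut from a long primary transcript in the nucleus by the microprocessor, which joins the RNase Drosha to the RNA-binding protein Dgcr8. Dicer cuts the resulting hairpin to a short duplex in the cytoplasm, and an Argonaute protein keeps one strand as a guide. The guide pairs with sites in the 3′ untranslated region (UTR) of messenger RNAs, mostly through its seed near the 5′ end, and a TNRC6 protein bound to Argonaute recruits the enzymes that shorten the poly(A) tail and block translation. Synthetic small interfering RNAs enter the same Argonaute proteins, and Ago2 is the Argonaute best known for cutting fully paired targets.

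Total counts per library lay between 21794227 and 29996185. Where 3 values of a group are listed, they follow the order of replicates 1, 2 and 3. Acsl5 itself stood at 342, 265 and 270 CPM (counts scaled to the library total and by the TMM method) in WT and at 49.8, 55.6 and 57.2 CPM in knockdown libraries. WT replicate 1 differed from all other libraries. Pearson correlations of log2 CPM across genes were 0.870 to 0.893 between it and each of them, against 0.970 to 0.996 among the others, and genes are not independent replicates. The shortest 10% of genes were higher in it than in the mean of the other 5 libraries by a median of 1.19 log2 units and the longest 10% were at -0.99, while the medians of the other libraries lay between -0.33 and 0.26. Results of the members are therefore given with and without WT replicate 1. Of the marker lists, 6 of 6 epithelial genes reached 1 CPM in at least 1 library, with sums of 6974 to 13160 CPM in WT, the highest in WT replicate 1, and 7221 to 7399 CPM in knockdown libraries. Of 5 fibroblast genes, 2 did (Pdgfra up to 91.4 and Col1a1 up to 12.5 CPM), with sums of 53.7 to 101.9 CPM in WT and 67.9 to 70.3 CPM in knockdown libraries. Of 5 leukocyte genes, 1 did (Cd68, up to 5.28 CPM), with sums of 3.33 to 4.43 and 4.83 to 5.46 CPM. Of 3 acinar genes, 2 did (Cela1 up to 10.05 and Prss2 up to 3.22 CPM), with sums of 4.57 to 13.3 and 7.64 to 9.41 CPM. Of 3 endothelial genes, 0 did, with sums of 0.133 to 0.273 and 0.221 to 0.252 CPM. Of the listed genes that did not reach 1 CPM, Pecam1 reached 0.273 CPM. Dcn, Col1a2, Lum, Ptprc, Lyz2, Cd3e, Cd79a, Cdh5, Kdr and Cpa1 stayed below 0.1 CPM in every library. The part of these cell types in the results was not tested.

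Compared per unit of transcript length, the 10 genes covered a wide range of levels. In TPM, the authors' unit corrected for length, Drosha was the highest, at 51.7 ± 0.778 TPM (SD, n = 2) in WT replicates 2 and 3 and 44.7 ± 1.37 TPM (SD, n = 3) in knockdown libraries. Tnrc6a at 33.8 ± 0.580 TPM and Ago2 at 32.8 ± 0.177 TPM followed in those WT libraries, and in the knockdown libraries their ranges overlapped, from 32.1 to 39.4 TPM for Tnrc6a and from 34.6 to 35.5 TPM for Ago2. Dgcr8 at 24.2 ± 0.431 TPM and Dicer1 at 23.4 ± 0.955 TPM did not differ beyond their spread in WT replicates 2 and 3. Tnrc6c at 14.8 ± 0.0849 TPM, Ago1 at 14.3 ± 0.672 TPM and Tnrc6b at 13.4 ± 0.594 TPM lay close together, and Ago3 was lower at 5.78 ± 0.0919 TPM. In knockdown libraries Dgcr8 at 30.5 ± 1.76 TPM lay above Tnrc6c at 21.1 ± 1.26 TPM, and Ago1 at 11.95 ± 0.444 TPM lay below Tnrc6b at 18.3 ± 3.48 TPM. The length behind the TPM of Tnrc6b differed between libraries, as given below, so its place in this order depends on the length used. The length behind the TPM of Dicer1, at 18.6 ± 3.07 TPM in knockdown libraries, differed between libraries as well.

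Ago4 was close to undetected. Its expected counts were 0, 8 and 8 in WT and 4, 6 and 5 in knockdown libraries, too few to enter the tests. The count of 0 in WT replicate 1 allows a level of up to 0.138 CPM, and the highest value in any library was 0.355 CPM. Intervals and floors of this kind cover counting error only.

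Ago3, Ago1 and Ago4 are neighbours on the minus strand of mouse chromosome 4 (GRCm38), within a span of 201769 bases. Ago3 lies at 126331704 to 126429556, Ago1 at 126435012 to 126468583 and Ago4 at 126489541 to 126533472, with gaps of 5455 bases between Ago3 and Ago1 and 20957 bases between Ago1 and Ago4. Their promoters are shown because these neighbours differ in level from below 1 to over 50 CPM. The RefSeq windows run from 250 bases before to 50 bases after the gene start, on GRCm38.p6, 5′ to 3′ on the minus strand, with each CG dinucleotide (CpG) in capitals.
Ago3 promoter (chr4:126429493-126429792): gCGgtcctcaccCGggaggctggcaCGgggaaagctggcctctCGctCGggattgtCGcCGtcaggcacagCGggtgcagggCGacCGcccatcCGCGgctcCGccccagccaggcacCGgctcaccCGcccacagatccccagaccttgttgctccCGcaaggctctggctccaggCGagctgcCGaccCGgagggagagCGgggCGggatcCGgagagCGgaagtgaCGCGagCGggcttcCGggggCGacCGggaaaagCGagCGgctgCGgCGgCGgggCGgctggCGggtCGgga
Ago1 promoter (chr4:126468534-126468833): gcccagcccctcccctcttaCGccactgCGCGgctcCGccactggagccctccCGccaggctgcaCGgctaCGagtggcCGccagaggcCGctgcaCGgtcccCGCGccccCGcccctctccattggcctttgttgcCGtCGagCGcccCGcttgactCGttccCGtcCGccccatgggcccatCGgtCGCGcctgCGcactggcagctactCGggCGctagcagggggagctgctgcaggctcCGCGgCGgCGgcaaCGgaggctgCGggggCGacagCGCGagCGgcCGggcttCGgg
Ago4 promoter (chr4:126533409-126533708): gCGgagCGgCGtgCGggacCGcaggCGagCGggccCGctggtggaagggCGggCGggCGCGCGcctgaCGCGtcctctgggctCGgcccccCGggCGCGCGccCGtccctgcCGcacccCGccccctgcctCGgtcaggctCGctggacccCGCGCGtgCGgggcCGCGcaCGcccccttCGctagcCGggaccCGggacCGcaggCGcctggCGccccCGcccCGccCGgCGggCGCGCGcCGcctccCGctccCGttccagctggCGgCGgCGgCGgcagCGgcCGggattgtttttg
All 3 windows were rich in CpG. The Ago1 window held 38 CpG at 75.7% GC, the Ago3 window 37 at 74.7% GC and the Ago4 window 54 at 83.3% GC. Of 32851 promoter windows of this length, 4.95%, 5.58% and 0.347% held at least as many. The gene of the 3 with the most CpG was the one near 0 in these cells, and the letters alone say nothing of the methylation of these sites, which was not measured.

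Over all 6 libraries, no member was called at an adjusted p below 0.05 (edgeR's quasi-likelihood test, Benjamini-Hochberg over all genes). The count was 0 of 9 tested members, beside 0% of 14679 genes. No member had an unadjusted p below 0.05, while 2351 of all genes did. DESeq2 called 0 members and 7.69% of genes. Over these 6 libraries edgeR did not call Acsl5 itself (log2 fold change, knockdown minus WT, -2.43, SE 0.167, adjusted p = 0.0619). DESeq2 did call Acsl5 (-2.45, adjusted p = 1.85e-38). In CPM, all knockdown libraries lay above all WT libraries for Tnrc6c and Dgcr8, 2 of 9 members, beside 18.7% of genes, and for 0 members in the other direction, beside 15.6% (34.3% in either). Without WT replicate 1, 3 of 9 tested members were called, beside 34.3% of 15152 genes: Tnrc6c was higher, and Ago1 and Drosha were lower. The 1 higher member stands beside 16.3% of genes called higher and the 2 lower members beside 18% called lower, so the share of members called was close to that of all genes. Without this library, 6 of 9 members did not overlap in CPM, beside 59.8% of genes. The 2 higher ones stand beside 30.4% and the 4 lower ones beside 29.3%.

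**Figure D1:**
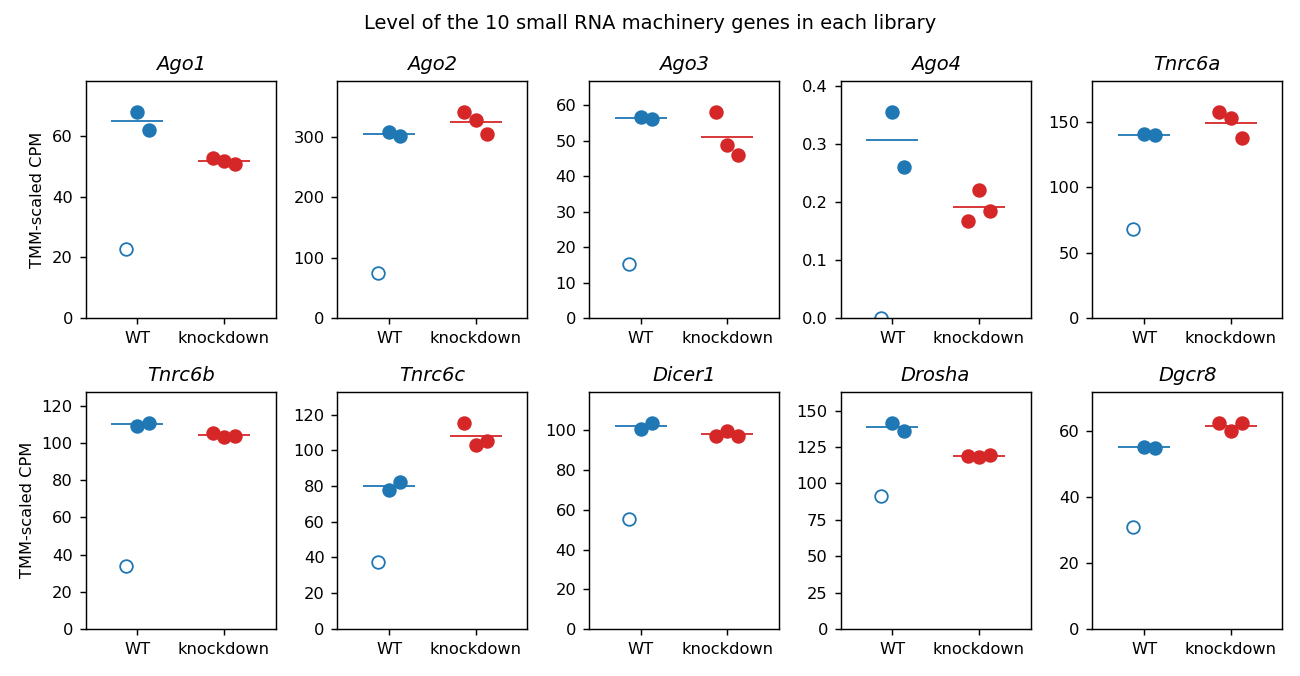
Level of each of the 10 genes in TMM-scaled CPM (vertical axes, starting at 0) in the 3 WT libraries (blue; WT replicate 1 open) and the 3 knockdown libraries (red), with lines at the mean of WT replicates 2 and 3 and of the knockdown libraries. WT replicate 1 was the lowest library for all 10 genes, and Tnrc6c, at 77.9 and 82.1 CPM in WT replicates 2 and 3 and 103 to 115 CPM in knockdown libraries, shows a wide gap between the groups.

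Among the Argonautes, Ago1, which loads microRNAs but is a poor target cutter, was lower in knockdown libraries than in WT replicates 2 and 3. It stood at 22.7, 67.9 and 61.9 CPM in WT and at 52.8, 51.9 and 50.7 CPM in knockdown libraries. In bulk RNA, a change in the share of cells that express a gene and a change in RNA per cell cannot be told apart. The knockdown values were tightly grouped below WT replicates 2 and 3 and above WT replicate 1. The log2 fold change, knockdown minus WT, was -0.34 (SE 0.0599, adjusted p = 0.00157 in edgeR) without WT replicate 1 and 0.026 (SE 0.395, adjusted p = 0.979) with it. The call was not made by limma-trend on log2(TPM + 1), where the change was -0.25 (adjusted p = 0.0794).

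Ago2, the slicing Argonaute, was the most abundant of the 4. Its levels were 74.5, 307 and 301 CPM in WT and 341, 327 and 305 CPM in knockdown libraries. In CPM the groups overlap only through WT replicate 2, which lay above knockdown replicate 3. The log2 fold change was 0.075 (SE 0.0501, adjusted p = 0.283 in edgeR) without WT replicate 1 and 0.51 (SE 0.510, adjusted p = 0.624) with it. With each library's trend against gene length removed, it was 0.20 (SE 0.0385, adjusted p = 0.00285) without WT replicate 1. Exons of Ago2 share 219 bases with Chrac1 on the opposite strand, which reached 54.8 CPM, and strandedness is not given in the sources used here, so reads of this stretch cannot be told apart.

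Ago3 was read at 15.2, 56.6 and 56.1 CPM in WT and at 58.1, 48.9 and 45.8 CPM in knockdown libraries. Knockdown replicate 1 lay above all WT libraries and the other knockdown libraries lay below WT replicates 2 and 3, so the groups overlap. The log2 fold change was -0.16 (SE 0.0876, adjusted p = 0.185 in edgeR) without WT replicate 1, and -0.25 (adjusted p = 0.00221) when knockdown replicate 1 was left out as well. With the replicate number as a block in the edgeR model, it was -0.26 (SE 0.0596, adjusted p = 0.00626) without WT replicate 1. In TPM the difference had the other sign, 0.096 on the log2(TPM + 1) scale (adjusted p = 0.611 in limma-trend).

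The TNRC6 proteins, also called GW182 proteins, are the scaffold between Argonaute and the deadenylases. Without WT replicate 1, 1 of the 3 paralogs was called, beside 34.3% of all genes. Tnrc6c was higher in all 3 knockdown libraries than in any WT library. It stood at 37.5, 77.9 and 82.1 CPM in WT and at 115, 103 and 105 CPM in knockdown libraries. Without WT replicate 1 the knockdown mean was 135% of the WT mean, the log2 fold change was 0.41 (SE 0.0585, adjusted p = 0.000436 in edgeR), and it was called under all 16 alternatives run on these 5 libraries. Over all 6 libraries the change was 0.71 (SE 0.305, adjusted p = 0.326), and 0.51 (SE 0.0765, adjusted p = 0.0248) with the length trend removed, a setting that called 6.34% of genes and 3.22% as higher.

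Tnrc6a was measured at 67.9, 140 and 140 CPM in WT and at 158, 153 and 138 CPM in knockdown libraries. Knockdown replicate 3 lay just under WT replicates 2 and 3, so the groups overlap with and without WT replicate 1. Its log2 fold change was 0.075 (SE 0.0567, adjusted p = 0.346 in edgeR) without WT replicate 1 and 0.36 (SE 0.295, adjusted p = 0.550) with it. Tnrc6b stood at 33.9, 109 and 111 CPM in WT and at 105, 103 and 104 CPM in knockdown libraries. The 3 knockdown values lay slightly below WT replicates 2 and 3, at -0.095 on the log2 scale (SE 0.0467, adjusted p = 0.146), and 0.30 (SE 0.435, adjusted p = 0.738) over 6 libraries. In TPM the same gene had higher values in knockdown libraries, though not called (adjusted p = 0.160 in limma-trend), at 14.2, 20.1 and 20.5 TPM against 12.95 and 13.8 TPM in WT replicates 2 and 3, with 3.30 TPM in WT replicate 1.

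The sign of the Tnrc6b and Ago3 differences turned with the unit. Dividing counts by TPM gives the length that each library's TPM implies for a gene, which restates the difference between the units and is not a separate observation. For Tnrc6b this length was 9531, 14618 and 13961 bases in WT and 12789, 9222 and 8999 bases in knockdown libraries. For Ago3 it ran from 7232 to 17734 bases, and for Dicer1 from 3752 to 10335 bases. Those of Ago1, from 7330 to 8015 bases, and Ago2, from 15604 to 16650 bases, stayed in a narrow range. Counts that are not whole numbers were deposited for Dgcr8 in 6 of 6 libraries, for Dicer1 in 5, for Ago1, Ago3 and Tnrc6b in 4 and for Tnrc6c in 2, which leaves reads shared between features of these genes uncertain.

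**Figure D2:**
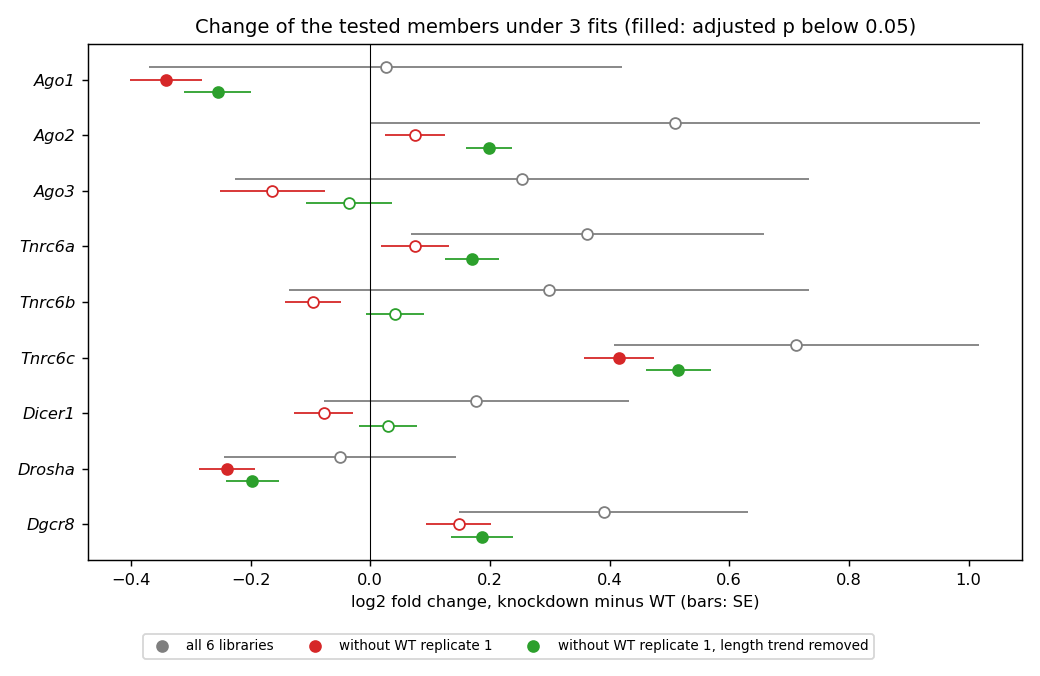
Log2 fold change, knockdown minus WT (horizontal axis), of the 9 tested genes over all 6 libraries (grey), without WT replicate 1 (red) and without it after removal of the length trend (green), with bars of 1 SE and filled points for an adjusted p below 0.05 in edgeR. Tnrc6c lies to the right and Ago1 and Drosha to the left in both fits of 5 libraries, and the bars over 6 libraries are wide.

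Of the processing enzymes, Drosha, the nuclear RNase that starts microRNA maturation, was lower in knockdown libraries than in WT replicates 2 and 3. It was at 91.4, 142 and 136 CPM in WT and at 119, 118 and 119 CPM in knockdown libraries. The knockdown libraries lay closely together, below WT replicates 2 and 3 and above WT replicate 1. The knockdown mean was 85.6% of that of WT replicates 2 and 3. The log2 fold change was -0.24 (SE 0.0470, adjusted p = 0.00288 in edgeR) without WT replicate 1 and -0.050 (SE 0.194, adjusted p = 0.905) with it. Without WT replicate 2 as well, which leaves 1 WT library, the change was -0.213. With WT replicate 1 alone left out, limma-trend on log2(TPM + 1) did not call Drosha (-0.207, adjusted p = 0.0563).

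Dgcr8, the partner that holds the primary hairpin for Drosha, had values in the other direction. It stood at 31.0, 55.1 and 54.7 CPM in WT and at 62.4, 59.9 and 62.2 CPM in knockdown libraries. Every knockdown library lay above every WT library. Its change of 0.15 log2 units (SE 0.0541, adjusted p = 0.0559 in edgeR) without WT replicate 1 missed the threshold, and it was called under 8 of 16 alternatives, including DESeq2's size factors (0.16, adjusted p = 0.0446). Over 6 libraries the change was 0.39 (SE 0.241, adjusted p = 0.447). Exons of Dgcr8 share 825 bases with Trmt2a on the opposite strand, which reached 92.4 CPM, so reads there cannot be told apart.

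The microprocessor can cut hairpin sequence in the message of Dgcr8, a known loop in which Drosha and Dgcr8 lower Dgcr8 messenger RNA. The Mir1306 hairpin is shown because this loop ties both microprocessor genes together. Mir1306 lies on chromosome 16 in exon 2 of Dgcr8, within the coding part of that exon. Dgcr8 also holds mmu-miR-3618-3p (18284562 to 18284583), whose hairpin is not shown. Its RefSeq hairpin (GRCm38.p6, minus strand) is given 5′ to 3′ with both mature arms in capitals.
Mir1306 hairpin (chr16:18284239-18284317): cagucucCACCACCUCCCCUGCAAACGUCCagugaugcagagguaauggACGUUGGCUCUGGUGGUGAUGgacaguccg
The gene entry Mir1306 itself was read at 0 CPM in every library. Whether the hairpin was cut was not measured.

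Dicer1, the cytoplasmic RNase, was read at 55.4, 101 and 104 CPM in WT and at 97.2, 99.8 and 97.2 CPM in knockdown libraries. The groups were separated by about 1 CPM without WT replicate 1, and the change of -0.078 log2 units (SE 0.0488, adjusted p = 0.249 in edgeR) was called under none of the 16 alternatives on 5 libraries. Over 6 libraries it was 0.18 (SE 0.255, adjusted p = 0.736). In TPM, Dicer1 stood at 13.7, 22.7 and 24.1 in WT and at 16.25, 17.5 and 22.1 in knockdown libraries. Limma-trend on log2(TPM + 1) gave -0.327 (adjusted p = 0.162) without WT replicate 1.

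The members have long transcripts, and WT replicate 1 was low in all of them. Their deposited lengths run from 4320 bases for Dgcr8 to 17332 bases for Tnrc6b among the tested 9, which places them between the 75.3 and 99.9 percentiles of tested genes. Ago2 was 4.22-fold below the mean of the other 5 libraries in WT replicate 1, Ago3 3.40-fold, Tnrc6b 3.11-fold and Drosha 1.38-fold. On the log2 scale the difference was -2.08 for Ago2, where the trend over all genes at its length was at -1.38. For Dgcr8 the difference was -0.91 against a trend of -0.44. For Tnrc6b the difference was -1.64 against -1.55, and for Drosha -0.47 against -0.50. Dicer1 was the member farthest above the trend, at -0.84 against -1.14. With the length trend removed and WT replicate 1 left out, 6 of 9 members were called, beside 35.5% of genes. Ago2, Tnrc6a, Tnrc6c and Dgcr8 were higher, beside 18.2% of genes, and Ago1 and Drosha were lower, beside 17.3%.

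**Figure D3:**
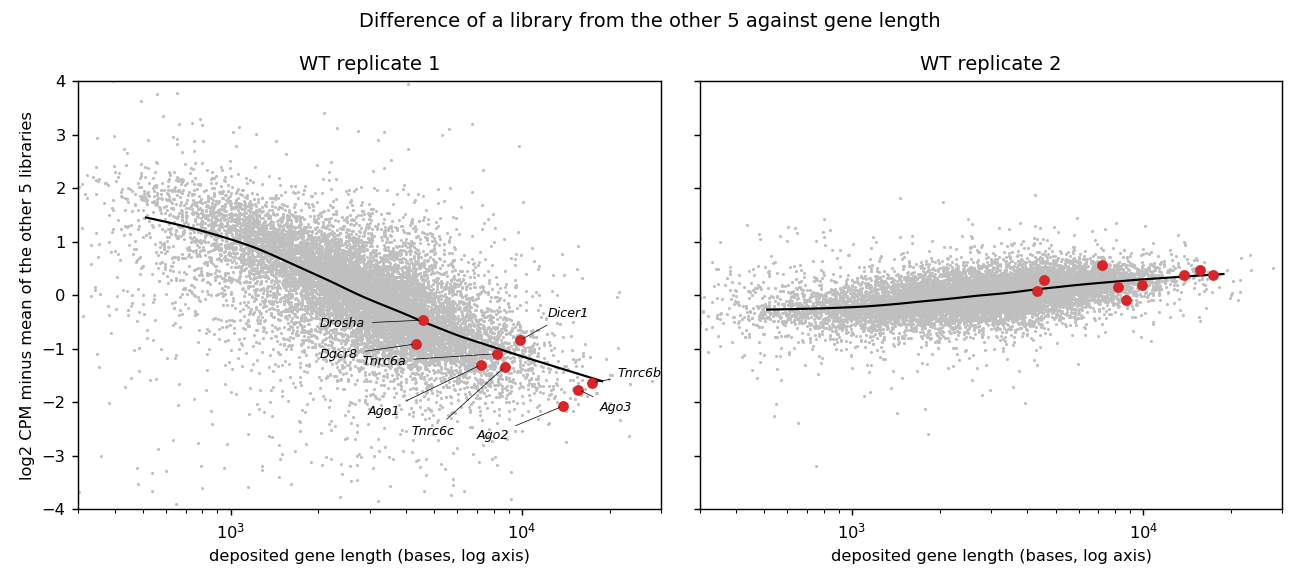
Difference of WT replicate 1 (left) and WT replicate 2 (right) from the mean of the other 5 libraries, in log2 CPM, against deposited gene length on a log axis, for tested genes (grey, drawn between -4 and 4), with the lowess trend (line) and the 9 tested members (red). In WT replicate 1 the trend falls with length and the members lie between -2.08 for Ago2 and -0.47 for Drosha.

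Shares within each family do not depend on how a library is scaled, but they are not free of a trend with gene length. A higher share of a paralog lowers the shares of the others, so the shares of a family are not separate results. In WT replicate 1 that trend was at -1.38 log2 units at the length of Ago2 and -0.90 at that of Ago1. Its part in the shares was not tested. Of the summed Argonaute TPM, Ago2 took 47.9%, 61.2% and 62.6% in WT and 66.1%, 65.3% and 66.1% in knockdown libraries. Every knockdown library lay above every WT library. The means were 57.2% ± 8.10 (SD, n = 3) and 65.8% ± 0.448 (SD, n = 3), with p = 0.1 in a two-sided exact permutation test, the lowest value possible for 3 against 3. Ago1 took 30.1%, 27.8% and 26.4% in WT and 23.3%, 21.3% and 22.6% in knockdown libraries, which also do not overlap (p = 0.1, exact permutation test). Without WT replicate 1 the differences were 3.94 percentage points for Ago2 and -4.71 points for Ago1, each with an exact permutation p of 0.2, the smallest that 2 against 3 allow. The share of Ago3 was 10.6% to 13.3% in knockdown libraries, against 10.9% in WT replicates 2 and 3 and 22.03% in WT replicate 1. With counts divided by the deposited length, the Ago3 share was 10.24%, 10.27% and 10.57% in WT and 10.42%, 9.20% and 9.17% in knockdown libraries. Ago4 took at most 0.150% in any library.

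In the TNRC6 family, Tnrc6c took 21.02%, 23.98% and 23.8% of the summed TPM in WT and 29.6%, 26.3% and 27.9% in knockdown libraries. Every knockdown share exceeded every WT share (p = 0.1, two-sided exact permutation test). Tnrc6a took 58.8%, 55.1% and 53.9% in WT and 51.7%, 47.8% and 44.1% in knockdown libraries, without overlap (p = 0.1, exact permutation test). The level of Tnrc6a itself was not lower, at 36.2 TPM in knockdown libraries and 33.8 TPM in WT replicates 2 and 3, with overlap. The summed TNRC6 TPM was 16.3, 62.0 and 61.9 in WT and 76.2, 77.6 and 72.9 in knockdown libraries. The Tnrc6b share was 18.7% to 28.0% in knockdown and 20.2% to 22.3% in WT libraries. With counts divided by the deposited length in place of TPM, the mean Tnrc6b share was 19.4% in WT replicates 2 and 3 and 16.4% in knockdown libraries, a difference of the other sign, while Ago2, Ago1, Tnrc6a and Tnrc6c kept theirs.

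**Figure D4:**
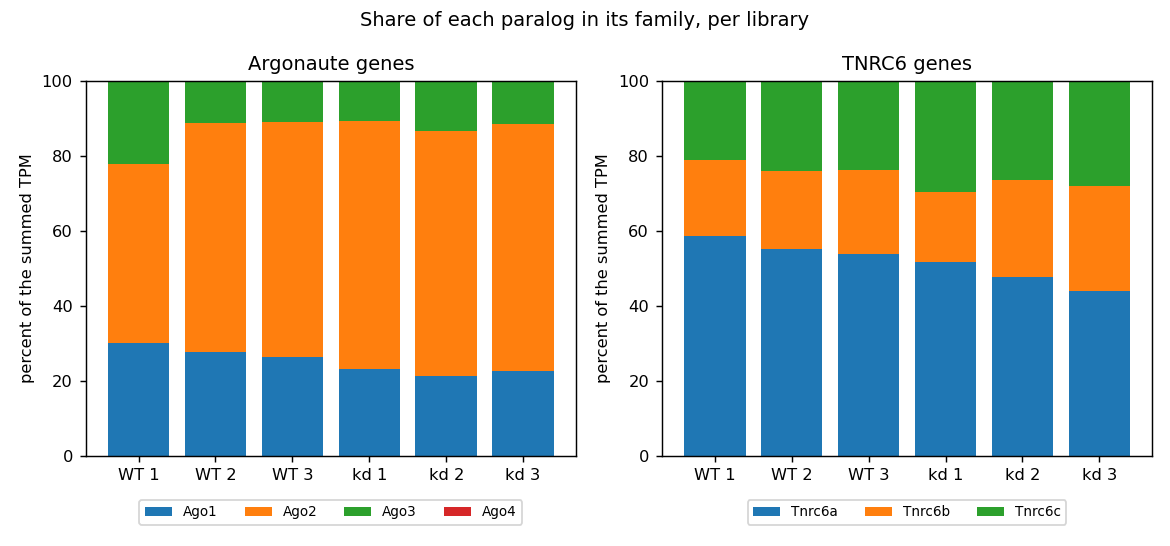
Percent of the summed TPM of each family (vertical axis, 0 to 100) taken by each paralog in the 3 WT and 3 knockdown (kd) libraries, Argonautes at left and TNRC6 genes at right. Ago2 takes 65.3% to 66.1% in knockdown libraries and 47.9% to 62.6% in WT, and Tnrc6c 26.3% to 29.6% against 21.02% to 23.98%.

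By the distance between centred log2 CPM profiles over the 6 libraries, Rai1 (0.0327) and Fat1 (0.0342) were nearest to Ago2. Eda (0.0168) and Stag2 (0.0225) were nearest to Dicer1, and Fpgt (0.0243) and Tmf1 (0.0281) to Drosha, each value a root mean square in log2 units. Rai1 stood at 26.2 CPM in WT replicate 1 and at 105 to 121 CPM elsewhere, so the low value in that library makes up most of the shared profile.

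The partners of these proteins were followed in 6 lists of 76 genes, none of them members. Over 6 libraries 0 of 59 tested genes were called, beside 0% of all genes. Of the 59, 3 had an unadjusted p below 0.05 in edgeR, beside 2351 of 14679 genes, and DESeq2 called 3 (5.08%), beside 7.69% of genes. Without WT replicate 1, 26 of 61 tested genes were called, 7 higher and 19 lower, which is 42.6% beside 34.3% of all genes. Their median log2 fold change was -0.069, beside -0.009 over all genes. All changes of partners given below are from the fit without WT replicate 1, and over 6 libraries 0 of them were called in edgeR as main test. With the length trend removed, 4 partner genes were called over 6 libraries, beside 6.34% of all genes, and all 4 were lower: Limd1 (-0.63, adjusted p = 0.0189), Eif4e2 (-1.16, adjusted p = 0.036), Mir100hg (-0.67, adjusted p = 0.0498) and Mir22hg (-0.56, adjusted p = 0.0435).

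Among 12 microprocessor and export partners, 3 were higher, 5 lower and 4 not called, beside 16.3% higher and 18% lower among all genes. Srrt (also called ARS2), which links capped transcripts to the microprocessor, rose from 229 and 225 CPM in WT replicates 2 and 3 to 293, 283 and 284 CPM (log2 fold change 0.32, SE 0.0427, adjusted p = 0.000300 in edgeR), with 252 CPM in WT replicate 1. The RNA helicase Ddx17, a Drosha cofactor, fell from 479 and 491 CPM to 437, 398 and 374 CPM (-0.28, adjusted p = 0.00326), with 191 CPM in WT replicate 1. Limma-trend on log2(TPM + 1) did not call Ddx17 (-0.204, adjusted p = 0.0926). Eri1, a 3′ exonuclease that trims small RNAs, was lower (-0.26, adjusted p = 0.00395), as was Hnrnpa1, which binds some primary microRNAs (-0.22, adjusted p = 0.00290). The hairpin exporter Xpo5 stood at 147 and 149 CPM in WT replicates 2 and 3 and 140 to 145 CPM in knockdown libraries (-0.070, SE 0.0452, adjusted p = 0.267). Srsf3 was not called either (-0.085, adjusted p = 0.194). With the trend against GC content removed, 3 of the 12 genes were called in place of 8, beside 31.8% of all genes, and Eri1 (adjusted p = 0.0741) and Hnrnpa1 (adjusted p = 0.0891) were not among them. Without WT replicate 3 as well, 1 WT library remains, so no count of calls is given for that fit.

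Of 9 tested genes that partner Dicer or edit precursors, 1 was higher and 2 were lower, beside 16.3% higher and 18% lower among all genes. Trim71, a ubiquitin ligase of the let-7 pathway, rose from 17.7 and 21 CPM in WT replicates 2 and 3 to 31.8, 28.7 and 27.3 CPM (0.57, SE 0.0981, adjusted p = 0.00131 in edgeR), with 14.1 CPM in WT replicate 1. The terminal uridylyltransferase Tut7 was lower (-0.24, adjusted p = 0.00569 in edgeR), and limma-trend on log2(TPM + 1) did not call it (adjusted p = 0.222). Without WT replicate 3 as well, which leaves 1 WT library, Tut7 was at -0.214. The poly(A) polymerase Tent2 was lower (-0.21, adjusted p = 0.0357), a call that was lost under 11 of 17 alternatives, among them DESeq2 (adjusted p = 0.0632) and the GC trend removed (-0.070, adjusted p = 0.482). The Dicer partner Tarbp2 stood at 39.3 and 38.0 CPM in WT replicates 2 and 3 and 39.6 to 41.3 CPM in knockdown libraries (0.045, SE 0.0642, adjusted p = 0.636), and the editing enzyme Adar was not called (-0.17, adjusted p = 0.0853).

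Among 19 RISC loading factors and Argonaute partners, 3 were higher, 4 lower and 12 not called, beside 16.3% higher and 18% lower among all genes. The LIM-domain proteins Limd1, Ajuba and Wtip, described in human cells as partners of Argonaute, did not move alike. Limd1 fell from 52.4 and 55.1 CPM in WT replicates 2 and 3 to 35.6, 34.5 and 31.3 CPM (-0.69, SE 0.0690, adjusted p = 5.92e-05 in edgeR), and WT replicate 1 stood at 34.8 CPM. Ajuba rose from 23.7 and 23.7 CPM to 43.4, 36.7 and 35.6 CPM (0.69, SE 0.0899, adjusted p = 0.000281), with 37.6 CPM in WT replicate 1. Wtip rose from 8.11 and 8.80 CPM to 15.3, 13.7 and 13.8 CPM (0.74, SE 0.110, adjusted p = 0.000624), with 20.6 CPM in WT replicate 1. For all 3 genes WT replicate 1 lay within or beyond the knockdown range. With the GC trend removed Wtip was at 0.064 (adjusted p = 0.726) and Fxr2 at 0.11 (adjusted p = 0.145), against 0.33 (adjusted p = 0.000774) for Fxr2, a paralog of the fragile X protein, without that step. The chaperones that load Argonaute were not called, Hsp90ab1 at -0.039 (SE 0.0386, adjusted p = 0.476) and Hspa8 at 0.11 (SE 0.0556, adjusted p = 0.168). Hspa8 was called under 5 alternatives. Among them were the GC trend removed (0.194, adjusted p = 0.0205), a replicate block (0.161, adjusted p = 0.00405) and the fit without knockdown replicate 1 (0.17, adjusted p = 0.000374).

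Of 15 silencing effectors outside the CCR4-NOT complex, 0 were higher, 6 were lower and 9 were not called, beside 16.3% higher and 18% lower among all genes. The split moved with the setting, with 1 higher and 3 lower under DESeq2 size factors and under library totals, 2 higher and 3 lower with the length trend removed, and 1 higher and 4 lower with the GC trend removed. Eif4e2, a cap-binding protein that blocks translation of silenced messages, fell from 99.5 and 108 CPM in WT replicates 2 and 3 to 50.6, 60.7 and 57.9 CPM (-0.90, SE 0.0815, adjusted p = 0.000104 in edgeR), and WT replicate 1 stood higher at 163 CPM. Pan3, which brings the PAN2 deadenylase to TNRC6 proteins, fell from 49.03 and 49.3 CPM to 38.0, 37.6 and 35.4 CPM (-0.43, SE 0.0620, adjusted p = 0.000529), with 37.7 CPM in WT replicate 1. The 5′ exonuclease Xrn1 fell from 47.8 and 46.9 CPM to 39.8, 38.8 and 35.8 CPM (-0.33, SE 0.0655, adjusted p = 0.00317), with 18.5 CPM in WT replicate 1. Limma-trend on log2(TPM + 1) called neither Pan3 (-0.358, adjusted p = 0.115) nor Xrn1 (-0.323, adjusted p = 0.0886). With both trends (length and GC) removed, edgeR did not call Xrn1 (-0.16, adjusted p = 0.0553). Pan2 was lower at -0.21 (adjusted p = 0.0406), a call that was lost under 13 of 17 alternatives, among them DESeq2 size factors (adjusted p = 0.0539) and the length trend removed (adjusted p = 0.0667), and Pan2 stood at -0.005 over all 6 libraries (adjusted p = 0.993). Pabpc1, the poly(A)-binding protein, stood at 0.026 (SE 0.0618, adjusted p = 0.786) and Gigyf2, the partner of Eif4e2, at -0.061 (SE 0.0451, adjusted p = 0.336). DESeq2 called 3 of the 15, all lower, beside 35.8% of all genes. Of 6 PIWI pathway genes, which act in the germline, 1 was tested, and Piwil4 stayed below 0.5 CPM in every library (log2 fold change -0.73, SE 0.663, adjusted p = 0.439).

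**Figure D5:**
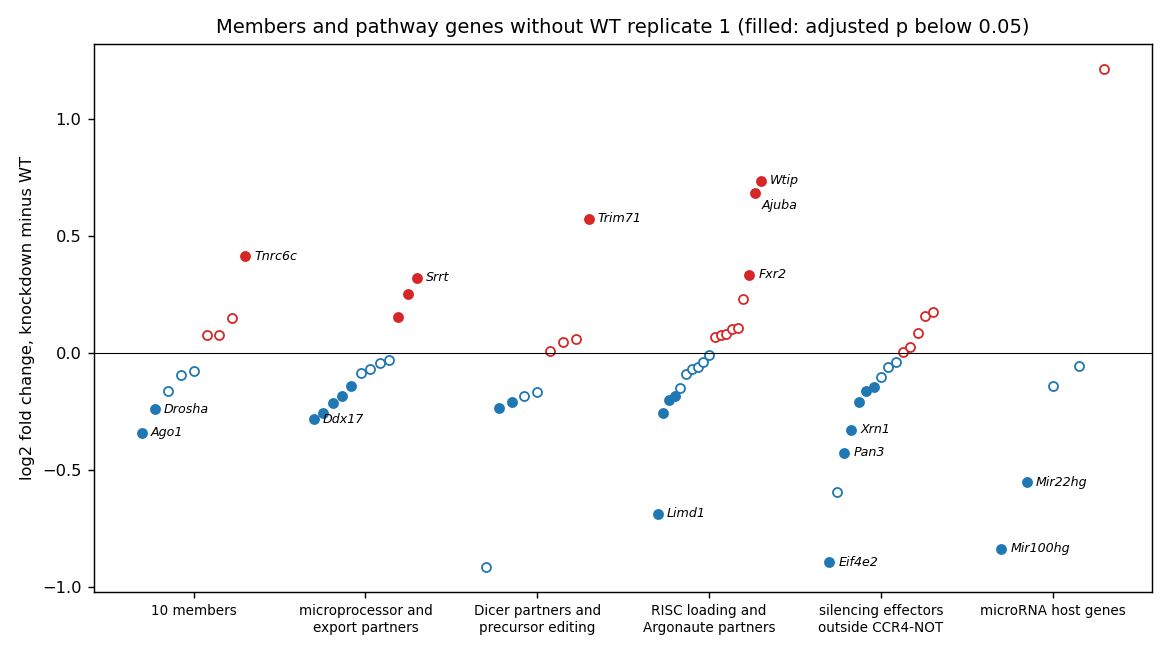
Log2 fold change without WT replicate 1 (vertical axis, knockdown minus WT) of the 9 tested members and of the tested genes of 5 partner lists, with 1 point per gene, red above and blue below 0, and filled points for an adjusted p below 0.05 in edgeR. Eif4e2, a silencing effector, lies at -0.90, and the 2 called host genes of microRNAs are Mir100hg at -0.84 and Mir22hg at -0.55.

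Host genes of microRNAs were read as long RNAs, so their values do not give the level of any mature microRNA. Of 14 rows named as hosts, 5 were tested without WT replicate 1, and 2 were called lower, beside 18% of all genes. Mir100hg (chromosome 9, 41327077 to 41716994, plus strand) stood at 66.1, 122 and 126 CPM in WT and at 74.5, 70.9 and 65.1 CPM in knockdown libraries. The knockdown libraries lay below WT replicates 2 and 3 and around WT replicate 1. The log2 fold change was -0.84 (SE 0.0583, adjusted p = 7.96e-06) without WT replicate 1 and -0.58 (adjusted p = 0.351 in edgeR) with it. Mir22hg (chromosome 11, 75461539 to 75466676, plus strand) stood at 20.5, 13.6 and 15.6 CPM in WT and at 10.6, 9.22 and 10.3 CPM in knockdown libraries. Every knockdown library lay below every WT library (-0.55, SE 0.113, adjusted p = 0.00365 in edgeR without WT replicate 1). Without WT replicate 3 as well, which leaves 1 WT library, the change was -0.453. With WT replicate 1 alone left out, limma-trend on log2(TPM + 1) did not call Mir22hg (adjusted p = 0.138). The hosts Mir17hg (-0.058, SE 0.212, adjusted p = 0.865) and Mir155hg (-0.14, SE 0.286, adjusted p = 0.746) were not called.

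The mature microRNAs encoded in the 2 lower hosts are printed because they are the guides that Argonautes would carry from these transcripts. They are from RefSeq on GRCm38.p6, 5′ to 3′, with the seed (bases 2 to 8) in capitals.
mmu-miR-100-5p, in Mir100hg: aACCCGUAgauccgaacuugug
mmu-let-7a-5p, in Mir100hg: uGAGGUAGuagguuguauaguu
mmu-miR-125b-5p, in Mir100hg: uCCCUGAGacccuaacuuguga
mmu-miR-22-3p, in Mir22hg: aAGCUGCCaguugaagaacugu
The 4 seeds differ from each other, so none of these guides shares a seed family with another.

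Matches to 2 overlapping sequences of 7 bases, GAACTAC and AACTACA, were counted in 3′ UTRs on the messenger strand only. An earlier analysis of the same fold changes picked them, so the counts are a description and give no support to a direction. Of 10 members, 2 held a match, Tnrc6a and Tnrc6b, which is 20% beside 13.3% of 12495 tested genes with an annotated 3′ UTR. The 10 include Ago4, which was not tested. The 3′ UTRs of the members run from 169 bases for Drosha to 12742 bases for Ago3. The shares were not adjusted for this length, so they are not a like comparison. Of 56 partner genes, 8 held one (14.3%), of which 5 were called lower (Limd1, Pan3, Ddx6, Xrn1 and Tent2), 0 higher, and 3 not called. Among all 1659 tested genes with a match, 36.9% were called lower and 9.52% higher, beside 17.6% and 19.9% of those with a 3′ UTR and no match. Limd1 and Pan3 hold the joined 8 bases, and the sites are shown with the matched bases in capitals, 5′ to 3′, beside those of the 2 members.
Limd1 (chromosome 9) 3′ UTR site: ttccaactcttGAACTACAgctaagcagta
Pan3 (chromosome 5) 3′ UTR site: tttttgtctttGAACTACAgctttataatg
Tnrc6a (chromosome 7) 3′ UTR site: caagcaaatacAACTACAaaaatgtgaaca
Tnrc6b (chromosome 15) 3′ UTR site: gcttacattatAACTACAaaatatttttga
The log2 fold changes without WT replicate 1 were -0.69 for Limd1 and -0.43 for Pan3, and 0.075 for Tnrc6a and -0.095 for Tnrc6b, the last 2 not called. A match is not a measured binding site.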

How the data were processed

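Per the labels' protocols, total RNA was extracted with TRIzol and sequenced on an Illumina platform; the protocol speaks of tissue while the samples are labelled as a cell line. Programs listed by the submitters' processing notes are DESeq2, StringTie, HISAT2 and fastp, with neither version nor role, beside the human builds hg38 and GRCh38, although 56980 of 57508 gene IDs are mouse Ensembl IDs. The authors deposited expected counts per gene, in which 10.1% to 13.0% of values per library were not whole, and TPM. Their quantifier and strandedness are not stated in any source at hand. If lengths behind TPM differ between libraries, TPM and counts can move apart.

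Counts were rounded to whole numbers, filtered with filterByExpr, scaled by TMM and tested with the robust quasi-likelihood F test of edgeR 4.0.16 in R 4.3.3, two-sided, with Benjamini-Hochberg adjustment over all genes and a threshold of 0.05. Both fits, of 6 libraries and without WT replicate 1, were made on the whole table. Family shares were compared by exact permutation over 20 or 10 assignments of the libraries. Alternatives were DESeq2 1.42.0 and its size factors, library totals, no filter, limma-trend (limma 3.58.1) on log2(TPM + 1) or log2(TPM + 0.1) for genes of at least 1 TPM, which understates changes of low genes, the replicate number as a block, each library's lowess trend (span 0.3) against length, GC content or both removed, a threshold of 0.01, and each library left out. The fit of 6 libraries for the partner genes was added after seeing the data. The scripts were tested on simulated counts. Positions and 3′ UTRs are from GENCODE M21 on GRCm38, and 9 of 10 members had a RefSeq promoter.

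The members and lists were chosen with earlier results of these data known. The text names all members and Acsl5 and, of each list, up to 4 called genes with the smallest p and up to 2 genes not called with the highest CPM, without WT replicate 1. Of the listed names, 2 are older names of genes already listed. The 2 patterns nearest to Ago2, Dicer1 and Drosha are named by centred log2(CPM + 0.5).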

Additional observations from a re-analysis of the deposited data

How the results depend on the processing

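Only 2 WT libraries remain without WT replicate 1, so every call of the 5 libraries rests on the small spread between them, and at most 8 counts per library left Ago4 untested. Of the calls among members on 5 libraries, Tnrc6c kept its call under 16 of 16 alternatives, Ago1 under 13 and Drosha under 12. The cause of each change below was not tested.

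Over 6 libraries the number of members called went from 0 to 1 with the length trend removed and to 1 with both trends (length and GC) removed, while leaving out 1 library gave 0 to 3. For partner genes it went from 0 to 3 with DESeq2, 4 with the length trend removed and 2 with both trends removed. Leaving out 1 library gave 0 to 26 partner genes, the 26 without WT replicate 1. Among all genes, DESeq2 called 1127 of 14660. Of 14679 genes, 930 were called with the length trend removed and 614 with both removed. Without WT replicate 1 it was 5193 of 15152 genes. Without WT replicate 1 the 3 called members became 1 on log2(TPM + 1) without a filter, beside 1219 of 26062 genes. They became 6 with the length trend removed and 6 with both removed, beside 5382 and 5070 of 15152 genes. The 26 partner genes became 10 on log2(TPM + 1), 10 on log2(TPM + 0.1), 6 on log2(TPM + 1) without a filter and 17 at a threshold of 0.01, and leaving out a further library gave 11 (without WT replicate 3) to 31.

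Log2 fold changes over 6 libraries changed sign as follows. Ago1 was at -0.096 with the length trend removed and -0.091 with both removed. Dicer1 was at -0.084 on log2(TPM + 1), with or without a filter, -0.086 on log2(TPM + 0.1), -0.084 with the length trend and -0.024 with both trends removed. Drosha was at 0.035 with library totals, 0.202 on log2(TPM + 1), with or without a filter, and 0.209 on log2(TPM + 0.1). With 1 library left out, the range was -0.341 to 0.292 for Ago1, -0.164 to 0.513 for Ago3, -0.095 to 0.535 for Tnrc6b and -0.078 to 0.319 for Dicer1, each lowest and below 0 without WT replicate 1 alone. For Drosha it was -0.240 to 0.069, above 0 without WT replicate 2 or 3.

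Without WT replicate 1, Ago3 was at 0.096 on log2(TPM + 1), with or without a filter, 0.109 on log2(TPM + 0.1) and 0.074 with both trends removed. Tnrc6b was at 0.405 on log2(TPM + 1), with or without a filter, 0.428 on log2(TPM + 0.1), 0.041 with the length trend and 0.091 with both trends removed, and Dicer1 at 0.030 and 0.072 in the last 2. Srsf3 was at 0.088 on both TPM scales, with or without a filter, 0.054 with the GC trend and 0.029 with both trends removed. Gigyf2 was at 0.099 on log2(TPM + 1), with or without a filter, and 0.101 on log2(TPM + 0.1), where Mir17hg was at 0.034 and 0.045. Mir17hg was also at 0.050 with a replicate block, 0.084 with the GC trend and 0.075 with both trends removed, and -0.181 to 0.061 with a further library left out. Tarbp2 was at -0.014 with the GC trend and -0.047 with both removed. Pabpc1 was at -0.042 with a replicate block and -0.033 to 0.077 with a further library left out. Mir155hg was at 0.00 with the GC trend removed and -0.329 to 0.093 with a further library left out. Over all 6 libraries Ddx17 was at 0.058, Xpo5 at 0.138, Tut7 at 0.040, Tarbp2 at -0.292, Adar at 0.055, Xrn1 at 0.013, Pabpc1 at -0.068, Gigyf2 at 0.244 and Mir155hg at 0.044.

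The share of Ago3 in TPM differed by -2.88 percentage points over 6 libraries, by -4.76 to 0.826 with 1 library left out, the latter without WT replicate 1, and by -0.821 points in counts per length without WT replicate 1. That of Ago4 differed by -0.0510 to 0.0239 points with 1 library left out, above 0 without WT replicate 2 or 3. That of Tnrc6b in counts per length differed by -1.005 points over 6 libraries and -3.009 without WT replicate 1.

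Libraries with the same replicate number did not deviate together (correlations of -0.147, 0.0579 and -0.241 over 12257 genes). Each group was centred on its own mean, so the outlying WT replicate 1 also set the deviations of WT replicates 2 and 3. Their correlations with knockdown replicates 1, 2 and 3 were alike, at 0.150, 0.0579 and -0.251 and at 0.133, 0.0714 and -0.241. The check therefore cannot tell whether the number is a pairing. With the replicate number as a block, 0 members and 0 partner genes were called over 6 libraries, beside 0 of all genes. Without WT replicate 1, 29 partner genes and 4 members were called with the block, beside 38.0% of all genes. The 4 were Ago1, Tnrc6c, Drosha and Ago3, which is not called without the block and stood at -0.261 with it (adjusted p = 0.00626).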
